A study of Mus musculus with 6 samples.

Results

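The data followed 9 genes of the machinery that copies DNA in melan-a mouse melanocytes and B16 mouse melanoma cells. They were Pola1, Pola2 and Prim1 of the DNA polymerase alpha and primase complex, Pold1 and Pold2 of polymerase delta, Pole and Pole2 of polymerase epsilon, Pcna, the sliding clamp, and Dut, the dUTPase. The 9 genes are among 3549 entries that the study listed as differing between the lines, and all 9 were found there by name. That list gives a fold for each gene and no array feature, so the features were found by their values. Each of the 41174 array features was a candidate for a gene when its mean melan-a/B16 ratio over all arrays equalled the listed fold within 0.00051, and every candidate was kept. The members were therefore chosen by the melan-a/B16 ratio itself, and the ratios below are a description of the selected genes, with no test.

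Melan-a is a line of non-malignant, partially immortalized melanocytes, and B16 is a melanoma line, both from the C57BL/6 strain and both untreated. Each is a single line, so the arrays compare this pair of lines and not melanocytes with melanomas in general. Melan-a cells were grown in RPMI 1640 with fetal bovine serum and a phorbol ester, whereas DMEM and bovine calf serum were used for B16, so that medium and line changed together and cannot be told apart. The paper also reports that B16 doubled faster than melan-a in log phase, and the part of this in the ratios was not tested. Both lines were compared directly on 6 arrays, and every array was a biological replicate of its own. Melan-a was labelled with Cy5 on replicates 1, 3 and 5 and with Cy3 on replicates 2, 4 and 6, with B16 in the other dye.

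DNA polymerase alpha, with its primase, starts each new strand with a short RNA and DNA primer. Polymerase epsilon then extends the leading strand and polymerase delta the lagging strand, and the ring-shaped PCNA trimer holds polymerase delta on the template and serves as a landing place for many other replication proteins. The dUTPase hydrolyses dUTP, which keeps uracil out of DNA and supplies dUMP for thymidylate synthesis. These genes are transcribed most as cells enter and pass through S phase, and E2F factors and the CCAAT-binding factor NF-Y are textbook regulators of such genes.

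RefSeq promoter windows, of 250 bases before and 50 after the start in build GRCm38.p6, were held for 8 of the 9 genes and were searched on both strands for TTTCGCGC, TTTGGCGC and TTTCCCGC, which are E2F-type words of 8 letters, and for CCAAT. No window was given for Pole. A stretch with a match is printed for each gene that had one, 5′ to 3′ on the strand of the gene, with the matched letters in capitals, because E2F and NF-Y are the regulators named above and because Pola1 and Prim1 are the members with the best defined array values.
Pola1: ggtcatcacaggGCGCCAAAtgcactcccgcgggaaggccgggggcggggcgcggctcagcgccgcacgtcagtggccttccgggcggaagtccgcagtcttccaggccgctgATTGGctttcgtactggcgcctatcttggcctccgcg
Prim1: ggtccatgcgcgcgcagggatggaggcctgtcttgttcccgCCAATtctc
Pcna: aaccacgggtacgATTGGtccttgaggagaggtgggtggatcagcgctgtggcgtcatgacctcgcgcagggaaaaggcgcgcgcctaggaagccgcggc
Pold2: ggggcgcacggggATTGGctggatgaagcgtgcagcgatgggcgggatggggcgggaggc
Pole2: gtcggcggtgGCGCCAAAtcgcgaacatgg
Pold1: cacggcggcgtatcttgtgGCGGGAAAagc
The Pola1 stretch is chrX:93632156-93632305, minus strand, and ends at the base before the start that its window used. The stretch lies within the annotated gene, which reaches upstream to 93632387. It holds TTTGGCGC as its reverse complement GCGCCAAA at -138 to -131 and CCAAT as its reverse complement at -37 to -33. The Prim1 stretch is chr10:128015165-128015214, plus strand, with CCAAT at -9 to -5. The Pcna stretch is chr2:132253181-132253280, minus strand, with the reverse complement of CCAAT at -87 to -83. The Pold2 stretch is chr11:5878257-5878316, minus strand, with it at -47 to -43. The same Pold2 window held it again after the start, at 2 to 6 and at 42 to 46, which are not printed. The Pole2 and Pold1 stretches lie after the start, at chr12:69228161-69228190 and chr7:44548766-44548795, both minus strand, with GCGCCAAA at 11 to 18 and GCGGGAAA at 40 to 47.

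An E2F-type word was thus present in the windows of 3 of 8 genes (Pola1, Pold1 and Pole2), and in 606 of all 32851 promoter windows, or 1.84%. CCAAT was present for 4 of 8 genes (Pola1, Pold2, Prim1 and Pcna), against 37.4% of all windows. TTTCGCGC was found in none of the 9 windows of these genes, 2 of which belong to Pold2, and in 0.323% of all windows. The windows of Dut and Pola2 held none of the 4 words. The Dut window, chr2:125247265-125247564, plus strand, lies wholly within the annotated gene, which begins at 125247248. Sequence before that position was not searched for Dut. Dut had the window richest in GC, at 75% with 36 CpG, and that of Pola2 had 61.3% with 30 CpG, whereas the median over all windows was 52.7% with 7 CpG. The windows with an E2F-type word had 65.7% with 31 CpG (Pola1), 65.7% with 24 (Pold1) and 56.3% with 13 (Pole2). The shares over all windows were not matched for GC, so they are no like baseline for these genes. A match is a description of the letters, not a bound site.

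How well a gene's features could be named set what could be said of it. Pola1 and Prim1 had 1 candidate each, A_51_P415905 and A_51_P168632, and no other entry of the list had the same fold. Dut, Pcna, Pold2 and Pole2 had 2 candidates each, and each shared its fold with 1 other entry (Gtse1, L3hypdh, Eif5 and Mcm7, in this order), so that either candidate can belong to either gene. Pole had 4 candidates and 2 other entries with its fold, Pold1 had 5 and 4, and Pola2 had 7 and 4. The 26 candidates all had a value on the 6 arrays. From the density of array features at these ratios, 1.15 features would fall within the tolerance of the fold of Pola1, 2.32 for Prim1, 0.969 for Pcna and 5.92 for Pola2, so that a match by itself does not settle the name. At the edge of the tolerance, the farthest candidate of Pola2 was 0.000506 from the listed fold and the nearest feature left out was 0.000517 from it. The Pola1 candidate was 0.000356 from its fold and the next feature 0.000554, and for Prim1 these distances were 0.00017 and 0.000641.

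All 9 genes had lower ratios in melan-a than in B16, between a 2.17-fold difference for Pola2 and a 4.83-fold difference for Pcna. Pole2 (4.53-fold), Dut (4.44-fold), Pola1 (4.32-fold) and Pcna were the farthest apart, and Prim1 (3.34-fold), Pold1 (3.11-fold), Pole (2.75-fold) and Pold2 (2.66-fold) lay between these and Pola2. Every candidate of all 9 genes passed the thresholds of the study (1.5-fold and a false discovery rate of 10%) in a one-class limma fit of all features. By the same rule 6.31% of the 39687 features tested were lower in melan-a and 5.23% higher, and since the members were selected on this ratio nothing is read from their count. Pole did not keep every candidate past the thresholds when replicate 2, 3, 5 or 6 was left out, which left 8 of the 9 genes in each case.

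**Figure D1:**
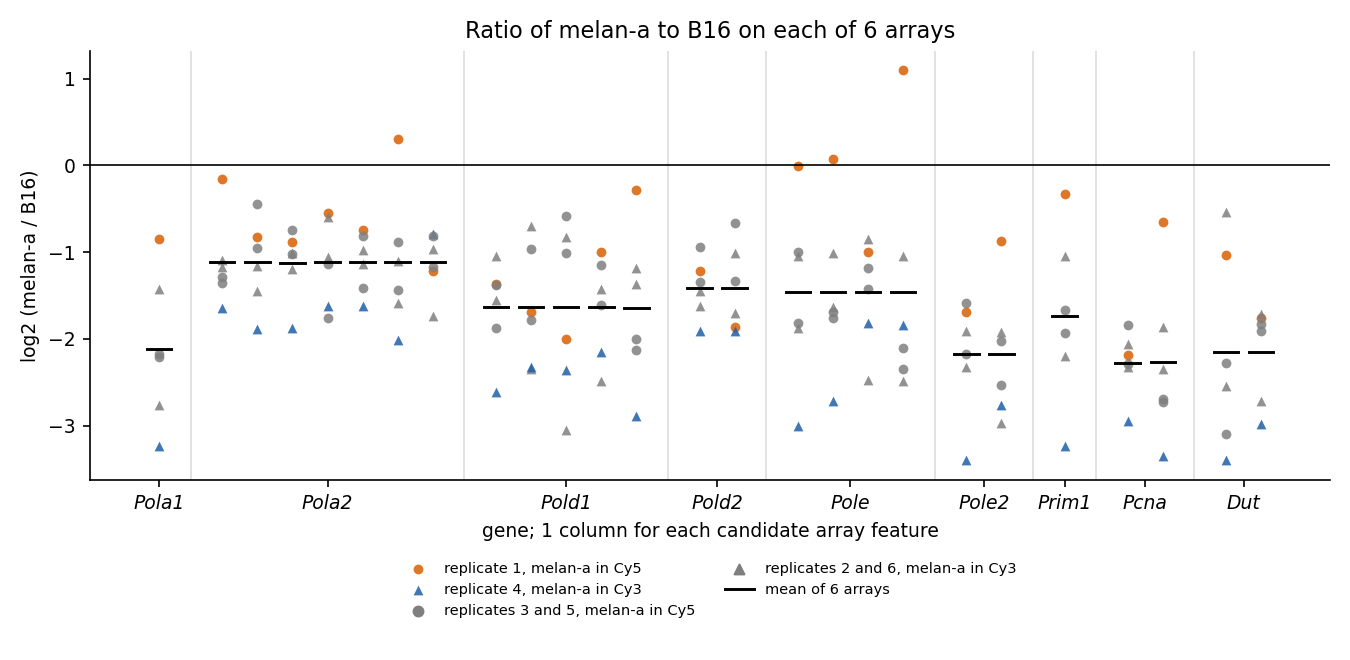
Log2 ratio of melan-a to B16 on each of the 6 arrays (y axis) for every candidate array feature of the 9 genes (x axis, 1 column for each candidate). Circles are arrays with melan-a in Cy5, triangles arrays with melan-a in Cy3, and bars the mean of 6 arrays. The 3 points above 0, of Pola2 and Pole, are all of replicate 1.

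Within polymerase alpha and primase, the Pola1 ratio, for the catalytic subunit, was -0.85, -1.43, -2.21, -3.24, -2.18 and -2.77 on the log2 scale in replicates 1 to 6. The mean was -2.11 ± 0.87 (SD, n = 6), with a limma standard error of 0.28. All 6 arrays lay below 0, replicate 4 lowest and replicate 1 nearest 0. Prim1, the catalytic subunit of the primase, gave -0.34, -1.05, -1.93, -3.24, -1.67 and -2.20, with a mean of -1.74 ± 0.99 (SD, n = 6) and a standard error of 0.31. Its arrays fell in the same order as those of Pola1, and Pearson's r over the 6 arrays was 0.983, given as a description because both share the arrays and their labelling.

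Pola2, the regulatory subunit that tethers the polymerase to the primase, cannot be tied to 1 feature. Its 7 candidates had, by construction, nearly the same mean (-1.12 on the log2 scale) but SDs from 0.35 to 0.80. On replicate 1 they ranged from -1.22 to 0.30, on replicate 4 from -2.01 to -0.79 and on replicate 6 from -1.45 to -0.59. The candidate A_52_P629487 was the one above 0 on replicate 1, and the other 6 were below 0 on all 6 arrays. Any pattern over the arrays finer than the mean is thus unknown for Pola2.

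Of polymerase delta, Pold2, the accessory subunit next to the catalytic one, had the narrowest spread of a gene with 2 candidates. The feature A_51_P342707 gave -1.22, -1.45, -0.94, -1.91, -1.34 and -1.62 in replicates 1 to 6, an SD of 0.33. The feature A_52_P533304 gave -1.87, -1.70, -0.67, -1.91, -1.33 and -1.02, an SD of 0.50. In both, replicate 3 was nearest 0 and replicate 4 lowest. The mean was -1.41 for either, with standard errors of 0.14 and 0.18. Pold1, the catalytic subunit, had 5 candidates with a mean of -1.64, SDs from 0.55 to 0.98 and every value below 0. Their medians in replicates 1 to 6 were -1.36, -2.35, -1.78, -2.36, -1.14 and -1.05, and single values ran from -3.05 in replicate 2 to -0.28 in replicate 1.

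Of polymerase epsilon, Pole2, the subunit next to the catalytic one, had candidates that agreed closely in replicates 2 and 3 and differed in the rest. A_51_P165704 gave -1.69, -1.91, -2.17, -3.39, -1.59 and -2.32, and A_51_P269687 gave -0.88, -1.92, -2.03, -2.76, -2.53 and -2.97. Both had a mean of -2.18, with SDs of 0.66 and 0.76 and standard errors of 0.22 and 0.24. Either feature was below 0 on all 6 arrays. Pole, the catalytic subunit, had the candidate with the largest SD of all 26. Its 4 candidates had a mean of -1.46 with SDs from 0.61 to 1.35, and on replicate 1 3 of them lay at -0.0038, 0.07 and 1.09 and the remaining one below 0. On replicates 2 to 6 all 4 were below 0, from -3.01 to -0.85. For 2 of the 4 features, replicate 1 thus pointed the other way from the rest.

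Pcna, the clamp, had a candidate with a narrow spread and one with a wide spread. A_51_P396351 gave -2.19, -2.06, -1.84, -2.94, -2.28 and -2.33, with a mean of -2.27 ± 0.37 (SD, n = 6). A_51_P408989 gave -0.65, -1.86, -2.73, -3.35, -2.69 and -2.35, with a mean of -2.27 ± 0.93 (SD, n = 6). Replicate 4 was lowest in both, and replicate 1 was nearest 0 in the second alone. The standard errors were 0.15 and 0.29.

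Dut, the nucleotide enzyme of the group, gave -1.04, -0.54, -3.10, -3.40, -2.28 and -2.54 at A_51_P195153 and -1.76, -1.71, -1.83, -2.98, -1.91 and -2.71 at A_51_P418469. The means were -2.15 ± 1.14 and -2.15 ± 0.55 (SD, n = 6), and the standard errors 0.35 and 0.19. At the first feature replicates 1 and 2 stood apart from the other 4 arrays, which were all below -2. At the second the 4 arrays 1, 2, 3 and 5 lay close together and replicates 4 and 6 lower.

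The arrays did not contribute alike. Over the 26 candidates, replicate 4 held the lowest ratio for 18 and replicate 1 the highest for 13. Among the 2480 features called lower in melan-a with a value on every array, replicate 4 was the lowest for 50.3% and replicate 1 the highest for 40.04%, so this order was not particular to the 9 genes. Replicate 4 also had the widest spread of ratios over all features (SD 0.80, against 0.48 to 0.62 on the others), and replicate 1 had the highest empty-spot signals and was quantified apart from the others. Their part in the ratios was not tested beyond leaving each out. The median SD of the 26 candidates over the arrays was 0.63, against 0.51 for features called lower and 0.35 for all features tested. The mean correlation between the candidates over the arrays was 0.42, against 0.20 between features called lower and 0.0025 between all features, and this is a description, since candidates of different genes share the arrays. Most of the 26 candidates need not be features of the 9 genes, so these values describe the candidates and not the genes.

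How far a signal stood above the array's empty spots bears on each ratio. Pola1 gave B16 signals of 750, 835, 1893, 4099, 3558 and 1944 in replicates 1 to 6 and melan-a signals of 416, 310.3, 408, 435, 787 and 285. Prim1 gave B16 signals of 820, 1366, 2140, 4515, 5106 and 2111 and melan-a signals of 650, 659, 562, 477.7, 1603 and 459. In both genes the B16 signal exceeded that of melan-a on every array. The 95th percentile of the 814 empty and negative control spots was 180 to 385 in the melan-a channel and 175 to 306 in the B16 channel, and both genes lay above it in both lines on all 6 arrays. On replicate 1 the melan-a signal of Pola1, 416, was close to that array's limit of 385. B16 was above this limit on all 6 arrays for all 26 candidates and melan-a for 23. The exceptions were Pola2 at A_51_P170987, where melan-a was above it on 3 arrays, and Pcna at A_51_P408989 and Pole2 at A_51_P269687, where it was above it on 5. No candidate was under the limit on every array, but at these 3 features the melan-a signal lay close to it. The signals were not corrected for background, and with the median of the empty spots subtracted, the difference grew from 4.32-fold to 6.83-fold for Pola1. For the 3 dim features it grew by more than that, and no corrected fold is given because little melan-a signal remained. At the brighter feature A_51_P396351 of Pcna it went from 4.84-fold to 5.15-fold, and for Prim1 from 3.34-fold to 4.197-fold.

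**Figure D2:**
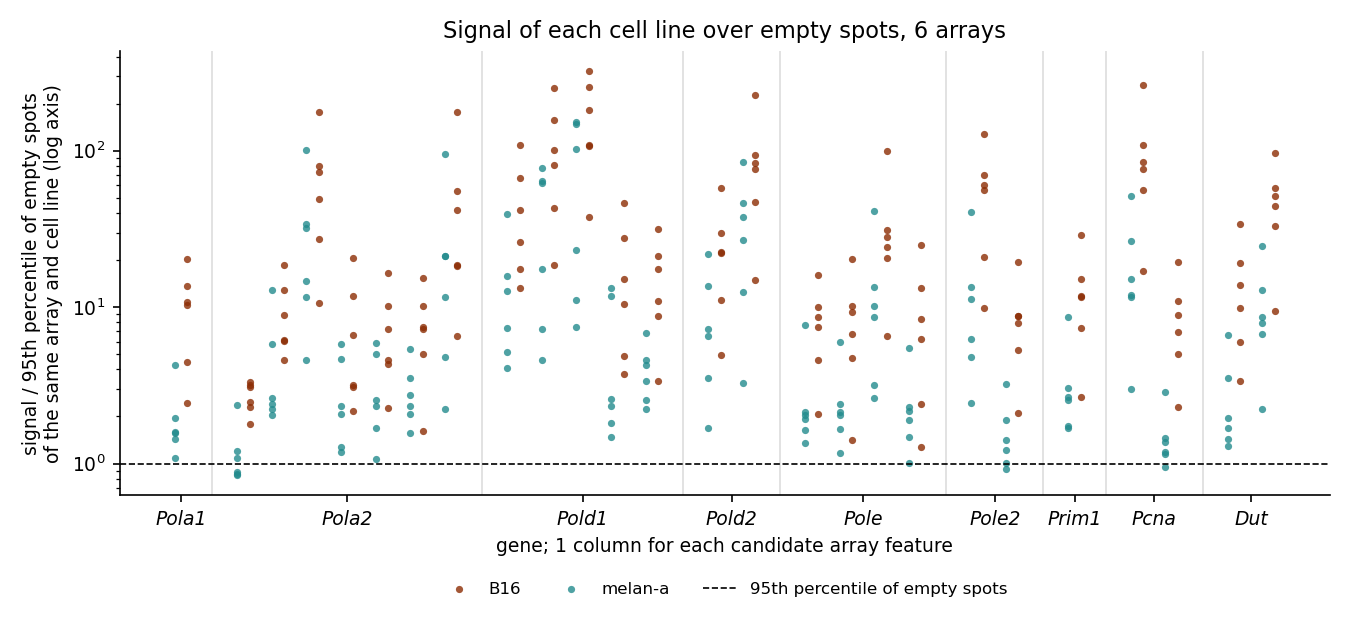
Signal of B16 (brown) and melan-a (green) on each of 6 arrays, divided by the 95th percentile of the empty and negative control spots of the same array and line (y axis, log scale), for every candidate of the 9 genes (x axis); points under the dashed line at 1 are not above empty spots. Melan-a falls to the line or below it for candidates of Pola2, Pole2 and Pcna, and B16 stays above it throughout; levels of different features cannot be set against each other.

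The listed fold is the mean over both dye orientations, so the difference between them did not name the features. The study's test, however, set that mean against its spread over the arrays, and an orientation difference adds to the spread. The choice of the genes was thus not independent of this difference, and the values are given as a description. With melan-a in Cy5 the Pola1 ratio averaged -1.75 and with melan-a in Cy3 -2.48, a difference of 0.73 with a 95% interval from -0.41 to 1.87 (limma adjusted p = 0.56). For Prim1 the means were -1.31 and -2.16, a difference of 0.85 with an interval from -0.42 to 2.13 (limma adjusted p = 0.55). Both genes were below 0 in either orientation. Over the 26 candidates the difference ran from -0.06 to 1.04 with a median of 0.51, and it was positive for 25. Of all features it was positive for 49.5%, and of those called lower in melan-a for 77.7%, with a median of 0.37. The counts over the 26 are of candidates, most of which need not be features of these genes. In limma none of the 26 passed an adjusted p of 0.10, the lowest being 0.30, and 2 had an unadjusted p below 0.05. Of the 39659 features tested 16, or 0.0403%, passed, and 13.17% had an unadjusted p below 0.05. With 3 arrays in each orientation the intervals were wide, and a miss of the threshold does not show that the orientations gave the same ratio. Replicate 1, often nearest 0, had melan-a in Cy5, and replicate 4, often lowest, had it in Cy3. A dye effect and the pattern of these arrays thus cannot be told apart.

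**Figure D3:**
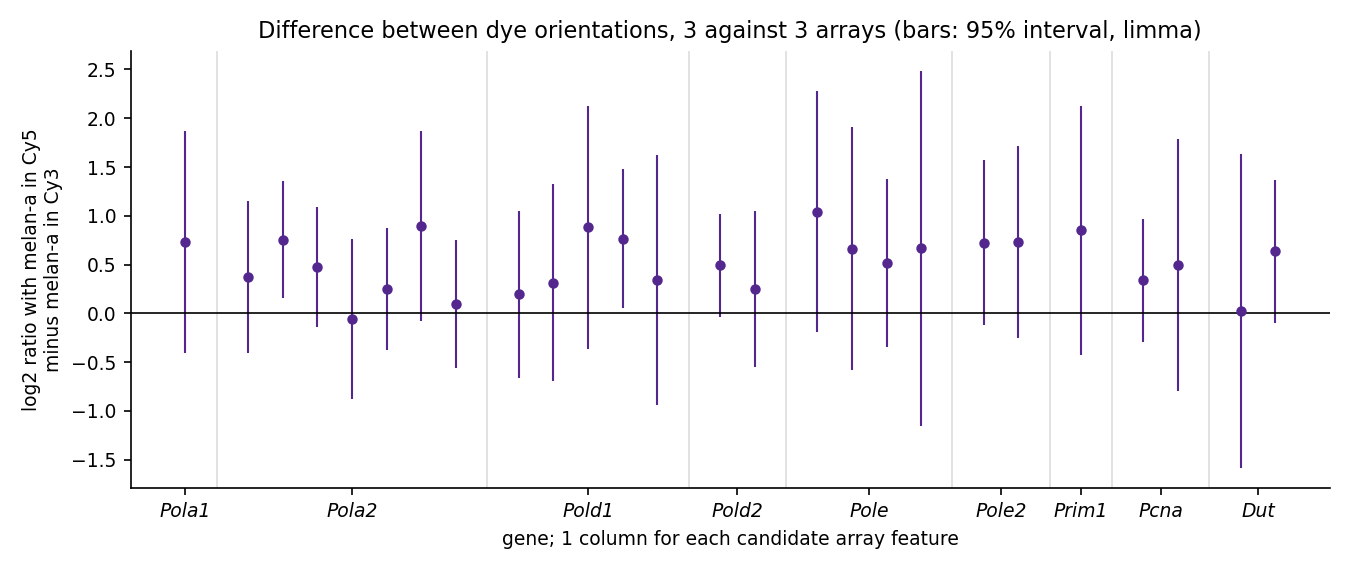
Mean log2 melan-a/B16 ratio of the 3 arrays with melan-a in Cy5 minus that of the 3 with melan-a in Cy3 (y axis) for every candidate of the 9 genes (x axis); bars are 95% intervals from limma. The points lie between -0.06 and 1.04 and 24 of the 26 intervals include 0.

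The lists of neighbouring pathway genes were put together with earlier results of these data known, and only genes on the study's list have a value, which selects genes that differ between the lines. Their ratios and counts are therefore a description too, with no test. Of 83 such genes 44 were on the list, with a median log2 ratio of -1.16, beside 0.01 over all features tested. In 33 of the 44 every candidate passed lower in melan-a (6.31% of all features), in 2 every candidate passed higher (5.23%), and in 9 the candidates did not all pass. The shares and the median of all features are no baseline for the 44, because every listed gene was called different by the study. The other 39 could not be tied to a feature. Rpa3 and Dctd had the same candidates, as did Guk1 and Nme6, so these 4 genes stand for a pair of measurements.

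Among the other subunits of the replicative polymerases, Pole4, a histone-fold subunit of polymerase epsilon, was 2.08-fold lower in melan-a (9 candidates, standard error up to 0.28). Pold4, the small subunit of polymerase delta, went the other way. It was 1.73-fold higher in melan-a at its single candidate, with every array between 0.41 and 1.47 (SE 0.16). The 9 candidates of Pold3 did not all pass. Of 13 repair and translesion polymerases 4 were on the list (Polb, Polh, Polq and Rev1), with median ratios from -0.93 to -0.60, and none of these 4 had every candidate past the thresholds. They had 14, 9, 15 and 18 candidates, so a candidate that missed may be a feature of another gene. Whether these 4 genes differed less than the replicative polymerases cannot be read from this.

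Of 19 clamp loaders and clamp partners, 9 were listed, and 7 were lower in melan-a. They included Chaf1a, the large subunit of the chromatin assembly factor that binds PCNA (3.22-fold), Dscc1, of the alternative clamp loader (3.07-fold), Pclaf, a PCNA-binding protein (2.76-fold), and Rfc4, a subunit of the clamp loader (2.71-fold). All 8 genes for single-strand binding and fork protection were listed and 7 were lower. Tipin (3.11-fold) and Timeless (3.00-fold), partners in the fork protection complex, Wdhd1, which links polymerase alpha to the helicase (2.84-fold, 1 candidate), and Rpa3, the small subunit of the single-strand binding protein (2.79-fold), were the farthest apart.

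Of 20 genes for deoxynucleotide supply, the role that Dut has, 13 were listed, of which 12 were lower and 1 higher. Tk1, the cytosolic thymidine kinase, was 3.76-fold lower, Nme4, a mitochondrial nucleoside diphosphate kinase, 3.42-fold, and Rrm1, the large subunit of ribonucleotide reductase, 3.15-fold. Cmpk2, a mitochondrial nucleotide kinase known as an interferon-induced gene, was 2.28-fold higher in melan-a (3 candidates). Of 18 genes for purine and pyrimidine synthesis, 7 were listed and 6 were lower, led by Umps, of the final steps of UMP synthesis (2.73-fold), Impdh2, of guanine nucleotide synthesis (2.26-fold), Ppat, of the committed step of purine synthesis (2.20-fold), and Atic, of the final steps of IMP synthesis (2.15-fold).

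**Figure D4:**
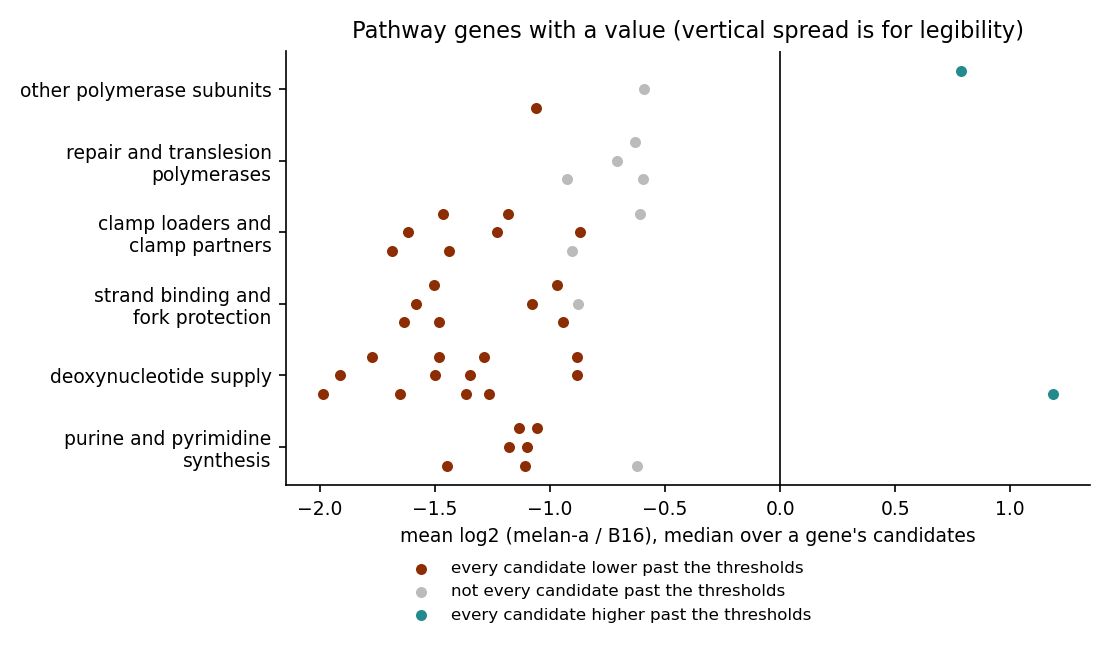
Mean log2 melan-a/B16 ratio (x axis) of the 44 pathway genes that are on the study's list, by group (y axis); brown points had every candidate lower past the thresholds (33 genes), green points every candidate higher (2 genes), grey points neither (9 genes). Pold4 and Cmpk2 are the points right of 0.

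Profiles over the 6 arrays were compared for all 351 genes outside the group that were named by a single feature of their own. By Euclidean distance of the log2 ratios, Ercc6l was closest to the median of Pola1 and Prim1 (0.68). Pola1 and Prim1 were 1.03 from each other, which is another measure, and both lay nearer to their median than Ercc6l did. Ercc6l, a DNA translocase of mitotic chromosomes, gave -0.78, -1.26, -2.40, -2.82, -2.07 and -2.83 in replicates 1 to 6. Depdc1a followed at 0.87, Csrp2 at 1.06, Knstrn at 1.07 and Plaat3 at 1.14. Their mean ratios were 4.08-fold, 3.16-fold, 3.77-fold, 4.72-fold and 4.30-fold lower in melan-a, in the same order. The likeness is of level and of arrays together, and these genes are among those the study listed.

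**Figure D5:**
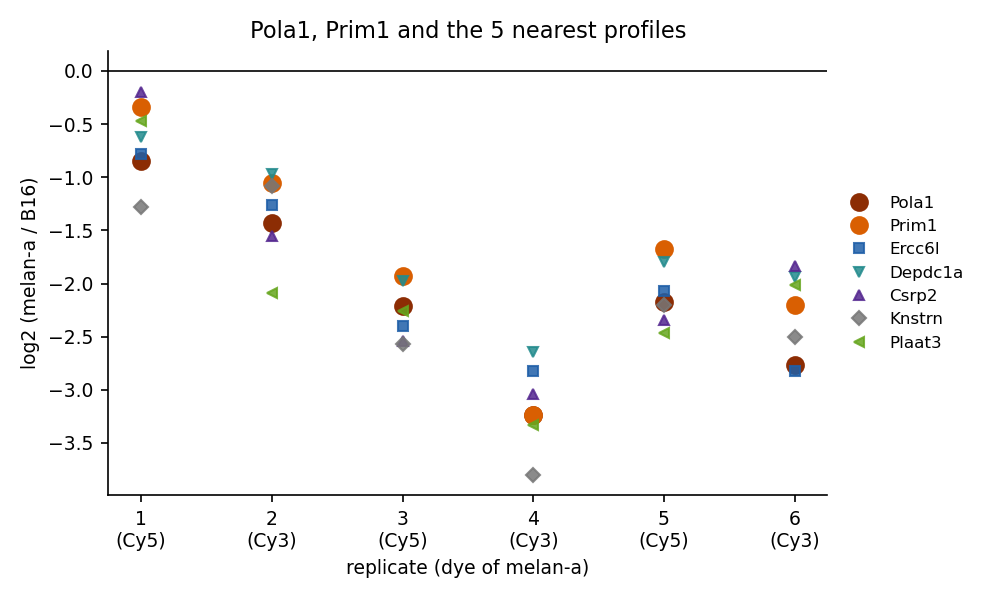
Log2 melan-a/B16 ratio (y axis) of Pola1, Prim1 and the 5 genes with the closest values on the 6 arrays (x axis, with the dye of melan-a). All 7 genes are below 0 on every array, and 6 of them are lowest on replicate 4.

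The labelled cell types could be checked in part. Of 10 pigment cell markers, Oca2 (5.86-fold higher in melan-a) and Gpnmb (2.08-fold lower, with candidates that are also those of Gart) were listed, while Tyr, Tyrp1, Dct, Pmel, Mlana, Mitf, Sox10 and Slc45a2 could not be tied to a feature. None of the 3 keratinocyte and 3 leukocyte markers was listed, and of 5 fibroblast markers Col1a1 was, 7.19-fold higher in melan-a. Of 7 markers of dividing cells, 5 were listed, while Mki67 and Aurkb could not be tied to a feature. Top2a was 9.49-fold lower in melan-a, Ccnb1 8.28-fold, Cdk1 4.79-fold and Birc5 1.81-fold, and the candidates of Plk1 did not all pass. Top2a, Ccnb1, Cdk1 and Birc5 moved the same way as the 9 genes, and their part in the ratios was not tested. In RNA from whole cultures, fewer cells in S phase and less RNA per cell cannot be told apart.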

How the data were processed

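Each of 6 arrays held melan-a and B16 RNA labelled with Cy3 or Cy5. Per the file headers, the deposited values are log2 signals that the authors obtained with ImaGene 6.0.1 after a global lowess normalization (smoothing 0.2) without background correction. Signals were turned to log2 melan-a/B16 by the dye labels. Only spots whose signals summed to more than 400 were kept, features needed a value on 3 arrays, and spots of the same feature were averaged. The study set 400 for background-subtracted signals, so that here the limit removes fewer dim spots.

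A one-class model of the remaining 39687 features, and another with dye orientation as a term, used limma 3.58.1 (R 4.3.3). Benjamini-Hochberg adjustment ran over all features, and the thresholds were a fold over 1.5 and an adjusted p under 0.10. Python 3.11.15 with pandas 2.3.3, numpy 2.4.6, scipy 1.17.1 and matplotlib 3.10.9 did the rest. Both limma fits and SAM were run on simulated data with independent features and a larger orientation difference than any candidate showed. This was a check of the code, and power at the sizes found here was not measured. The number of arrays limits the precision, and no depth applies.

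The members and gene lists were chosen with earlier results of these data known. The rule for named genes took all members, up to 4 genes of each list with the largest ratio among those with every candidate past the thresholds, every list gene higher in melan-a, and the 5 nearest profiles. 1 gene that the rule takes is not reported here. Where a gene had several candidates, its value is the median of their means. Markers were counted whatever their result, and the unlisted fibroblast, keratinocyte and leukocyte markers were not named singly. Alternatives were median signals, other intensity limits, subtraction of empty spots, centring, one-class SAM with 64 sign patterns, orientation as a covariate and leaving out each replicate. Promoter windows came from RefSeq (GRCm38.p6). The spot flags and the retinoic acid arrays were not used here.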

Additional observations from a re-analysis of the deposited data

Results flagged for a closer look

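At the Pola2 candidate A_51_P170987, replicate 1 stood at -0.16 on the log2 scale while the other 5 arrays lay between -1.65 and -1.09, a gap larger than Dixon's 95% limit for 6 values. Chance flags about 1 in 20 such groups, and 26 candidates were examined. This was also the feature whose melan-a signal was above the empty spots on 3 arrays only, with 910 in replicate 1 and 151 to 236 on the others.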

How the results depend on the processing

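The mean ratios of the 9 genes kept their direction under every alternative run. All 9 genes had every candidate past the thresholds under median signals, both other intensity limits, subtraction of the empty spots, centring, orientation as a covariate and SAM, and 8 to 9 did when an array was left out. The 33 lower pathway genes became 26 to 33 when an array was left out. They became 29 with the empty spots subtracted, 31 with centring or a limit of 800, and 32 with median signals. The number stayed at 33 without an intensity limit, and it was 35 with SAM and 37 with orientation as a covariate.

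The 16 features with an orientation difference became 3 with the empty spots subtracted and 0 to 58 when an array was left out, 0 without replicate 5 and 58 without replicate 6. No candidate of the 9 genes was among them under any setting. Melan-a was above the 99th percentile of the empty spots on all arrays for 12 of the 26 candidates, instead of 23 at the 95th percentile. Pola1 and Prim1 were not among the 12: their melan-a signal was above it on 3 and 5 arrays. With TTTCGCGC and TTTGGCGC alone, 2 promoters had an E2F-type word instead of 3, against 0.813% of all windows. The deposited value table holds the ratios of the array files, with the columns of replicates 4 and 5 exchanged, so it was not run as an alternative. Each ratio already pairs melan-a with B16 on the same array, and no further replicate block applies.

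The signals of melan-a near empty spots limit the size of the difference for the dimmer features, and the folds without background correction are the smaller ones there.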
